A study of Xenopus laevis with 12 samples.

Results

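The genes described here encode protein kinases and protein phosphatases, with their regulatory subunits, whose mRNAs the study's authors listed in their deposited tables of Staufen-associated and hnRNPab-associated RNAs. They were taken by gene name, from the kinase and phosphatase name stems map2k to map4k and mapk, cdk, csnk, prk, camk, stk, dyrk, hipk, nek, pak, pim, akt, rps6k, mark, tnik, ppp1 to ppp6, ppm1, ptpn, ptpr, ptp4a and dusp. Genes named csnk1d, cdk2 and dusp11 were left out by rule, also from the counts of RefSeq genes below. Of the 3968 genes in either table, 92 others carried such a name, 54 of kinases and 38 of phosphatases. They stood under 64 symbols once the .L and .S copies were counted together. The .L and .S copies (homeologs) are the pairs of genes left by the genome duplication of Xenopus laevis. All 92 were among the 20803 genes that passed the filter on low counts, of 51061 genes in the count files. Both tables together listed 9 of the 92, the Staufen table alone listed 37 (20 kinase and 17 phosphatase genes), and the hnRNPab table alone listed 46 (29 and 17). Distinct gene identifiers sometimes shared a name: dyrk1a.2.L stands for gene17110, gene35315 and gene50575, and dusp4.L for gene3274 and gene8830.

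Protein kinases attach phosphate to other proteins and phosphatases take it off, and many of both act in chains, as in the mitogen-activated protein (MAP) kinase cascades, where each kinase switches on the next. Catalytic subunits of phosphatases 1, 4 and 6 rely on regulatory subunits that bring them to a substrate, whereas tyrosine and dual-specificity phosphatases are mostly single proteins. The frog oocyte is arrested in meiotic prophase while it grows, and stores maternal mRNAs of such regulators for maturation and early cleavage. L-bodies are cytoplasmic RNA-protein condensates that carry mRNAs toward the vegetal pole. The values below are shares of the RNA recovered in each immunoprecipitation, and say nothing of the encoded kinase or phosphatase protein or its activity.

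RNA came from lysate of oocytes pooled over stages II and III, enriched for L-bodies by size exclusion and then immunoprecipitated. Of the 12 libraries, 4 carried the label Staufen (a double-stranded RNA-binding protein of RNA transport), 4 the label hnRNPab (an RNA-binding protein that binds vegetally localized mRNAs) and 4 the label IgG, which by name is a control antibody. All groups share the fractionation and the oocyte stages. Nothing in the labels ties replicates to separate frogs, so p-values weigh differences against a spread that may be technical only. The libraries held 14147584 to 22103431 counts in genes, which put the level allowed by a count of 0 at 0.136 to 0.212 CPM, for counting error only. CPM are counts scaled to the size of their library, here with TMM, a normalization that sets the bulk of genes equal between libraries. As shares of a library they have a limit: less of one RNA and more of the others cannot be told apart, nor can fewer oocytes and less RNA per oocyte. The oocyte growth factor gene gdf9.L was present at 103 to 374 CPM and the vegetally localized vegt.S at 89.8 to 256 CPM across the 12 libraries. Only genes in the deposited tables have names here, and among them 1 of 18 follicle and theca cell marker symbols was found (foxo1.L), none of 15 stromal and endothelial symbols, and 1 of 15 blood cell symbols (slc4a1.L, the anion exchanger of red cells). Levels of slc4a1.L were 27.0 to 40.5 CPM with the Staufen label, 104 to 163 CPM with the hnRNPab label and 24.97 to 35.7 CPM with the IgG label, and any part of blood cell RNA in the differences below was not tested.

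The labels and the deposited tables did not match. For the 9 kinase and phosphatase genes in both tables, the Staufen fold change of the authors' deposited tables minus their hnRNPab fold change equalled the hnRNPab-labelled minus IgG-labelled difference computed here, with a median gap of 0.015 and a maximum of 0.016 on the log2 scale. Over all 448 tested genes in both tables the median gap was 0.0148 and the maximum 0.0185. No difference between labelled groups came as close to either table alone. For the Staufen table the nearest was hnRNPab-labelled minus IgG-labelled, with a median gap of 0.40 log2 over 46 genes, and for the hnRNPab table it was IgG-labelled minus hnRNPab-labelled, with a median gap of 0.42 over 55 genes. Over all listed genes that were tested, the same differences had median gaps of 0.47 (2426 genes) and 0.52 (1930 genes). Neither table alone thus equalled a difference between labelled groups. Which reference the tables used, and whether labels of the libraries or of the tables were crossed, was not tested. Groups are therefore named by their labels throughout, and every direction is one between labelled libraries. A difference from the IgG label is not read as enrichment or depletion over a control. The words both antibody labels stand for the Staufen and hnRNPab labels. The tables were made from antibody comparisons in this study, so that membership of a table is itself a readout, and the fold changes and adjusted p-values of the members describe them and are no independent evidence for the tables.

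The libraries labelled hnRNPab and those labelled IgG differed in most members. Of the 92 genes, 37 were higher in the hnRNPab-labelled libraries and 42 lower at an adjusted p below 0.05 in edgeR's quasi-likelihood test, and 13 did not pass. Over all genes tested, 16.3% were called higher and 17.4% lower, and the tables fixed most of the members' directions. Among the 37 genes of the Staufen table alone 34 were higher, as were 83% of all genes of that kind, and 40 of the 46 from the hnRNPab table alone were lower, as were 82.9% of all of that kind. The median log2 fold change of the members was -0.30, against -0.02 over all genes tested. This median joins opposed sets: it was 1.17 for the 37 genes of the Staufen table alone and -0.98 for the 46 of the hnRNPab table alone. Groups did not overlap for 36 higher and 42 lower genes (15.2% and 16% of all genes tested). With the replicate number as a block the counts were 40 higher, 47 lower and 5 not passed (31.3% and 33.3% of all genes called). Same-numbered libraries deviated together, so that the numbers pair the samples. Calls, adjusted p-values and overlaps of groups leave that pairing out unless the block is named. In the accounts of families, a value in brackets with its SE is the hnRNPab-minus-IgG log2 fold change unless another pair of labels is named. Fits that left out a library had no replicate block. Every call lost in them was kept with the block on all 12 libraries (adjusted p = 1.65e-13 to 2.21e-05 in edgeR's test). By role, 21 kinase genes were higher, 25 lower and 8 did not pass, and 16 phosphatase genes were higher, 17 lower and 5 did not pass. Counts by family, given below, are to be read beside the shares by table, since the table of a gene largely fixed its direction. They cover listed genes only: of the 484 RefSeq genes of the name families searched, 16.3% had a match in the deposited tables.

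**Figure D1:**
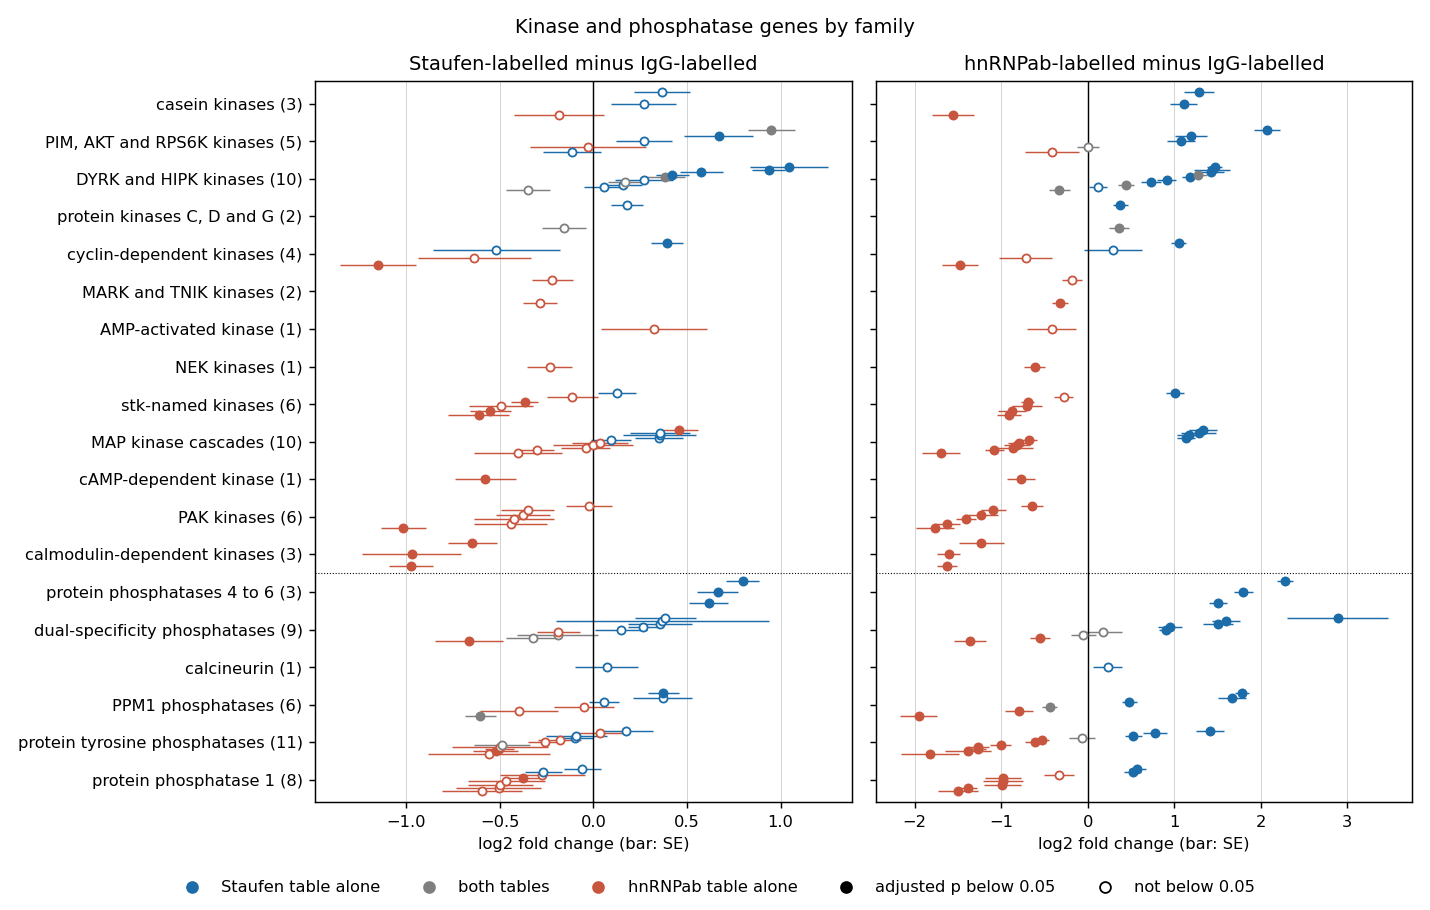
Log2 fold changes (horizontal axes, with SE) of the 92 genes by family (number of genes in brackets, kinases above the dotted line), Staufen-labelled minus IgG-labelled on the left and hnRNPab-labelled minus IgG-labelled on the right. Colours give the deposited table that listed the gene, and filled points passed an adjusted p of 0.05 without the replicate block. In the right panel all 6 PAK and all 3 calmodulin-dependent kinase genes lie below 0 and all 3 genes of phosphatases 4 to 6 above it.

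The DYRK and HIPK kinases are related nuclear and cytoplasmic kinases that phosphorylate transcription factors and cofactors, and their mRNAs were mostly higher with the hnRNPab label. By table, 7 of the 10 genes came from the Staufen table alone and 3 from both. Of the 10 genes, 8 were higher than with the IgG label, dyrk3.S was lower and dyrk1a.L did not pass. They were also the family most fully listed. Of its 10 genes in the RefSeq annotation of assembly Xenopus_laevis_v10.1, 7 (70%) had a match in the deposited tables. That share was 16.3% over the 484 RefSeq genes of the name families searched and 8.57% over all protein-coding genes. Matches were by name: 79 RefSeq symbols matched the 92 members, but only 2956 the 3968 listed genes. Listed genes without a matching name do not count toward these shares.

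The gene hipk1.L, homeodomain-interacting protein kinase 1, had 434, 453, 530.2 and 539 CPM with the Staufen label, 876, 863, 999 and 882 CPM with the hnRNPab label and 329, 359, 432 and 379 CPM with the IgG label. Its hnRNPab-labelled libraries were all above the other 8, and the log2 fold change over IgG was 1.27 ± 0.11 (SE, adjusted p = 2.93e-06). The closely related hipk3.L had 143, 166, 161 and 151 CPM with the Staufen label, 248, 287, 278 and 238 CPM with the hnRNPab label and 114, 122, 122 and 106 CPM with the IgG label. It was higher with both antibody labels than with IgG, by 0.42 ± 0.087 log2 for Staufen (SE, adjusted p = 0.0105) and by 1.18 ± 0.088 log2 for hnRNPab (adjusted p = 1.17e-06). The .S copies hipk1.S and hipk3.S were higher with the hnRNPab label by 0.44 and 0.91 log2 and overlapped the IgG-labelled libraries with the Staufen label. The Staufen-IgG difference of these copies did not pass (adjusted p = 0.393 and 0.527), but with the replicate block both were higher (0.00537 and 0.0108).

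The 3 genes named dyrk1a.2.L, the name of a kinase encoded in humans on the chromosome gained in Down syndrome, were all higher with both antibody labels. They came from the Staufen table alone, where 83% of all genes were higher with the hnRNPab label and 8.14% with the Staufen label. Over all genes tested these shares were 16.3% and 4.45%. Gene35315 had 39.2, 41.5, 45.2 and 42.8 CPM with the Staufen label, 59.8, 57.8, 63.8 and 62.5 CPM with the hnRNPab label and 21.9, 24.4, 21.6 and 20.3 CPM with the IgG label. No library of one group reached those of another, and the log2 fold changes over IgG were 0.94 ± 0.086 for the Staufen label and 1.47 ± 0.087 for the hnRNPab label (SE, adjusted p = 1.12e-04 and 2.29e-07). Gene17110 had 146, 157, 194 and 157 CPM with the Staufen label, 177, 177, 212 and 164 CPM with the hnRNPab label and 106, 108, 126 and 98.6 CPM with the IgG label. Gene50575 had 5.12, 6.65, 8.74 and 7.397 CPM with the Staufen label, 7.42, 8.18, 10.03 and 11.1 CPM with the hnRNPab label and 3.76, 2.98, 3.96 and 2.84 CPM with the IgG label. In both, the Staufen-labelled and hnRNPab-labelled libraries overlapped each other and all lay above the IgG-labelled ones, with Staufen-minus-IgG log2 fold changes of 0.58 and 1.04.

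The other copies did not follow one pattern. The gene dyrk1a.S had 15.9, 22.7, 18.01 and 24.5 CPM with the Staufen label, 36.9, 45.9, 44.9 and 52.2 CPM with the hnRNPab label and 14.6, 18.7, 16.1 and 17.7 CPM with the IgG label. The hnRNPab-labelled libraries alone were above the rest (1.42 ± 0.16, SE, adjusted p = 2.35e-05). For Staufen over IgG the adjusted p was 0.418, or 0.004996 with the replicate block. For dyrk1a.L the 3 group means were 66.1, 69.3 and 63.7 CPM in the order Staufen, hnRNPab and IgG, and the 12 libraries overlapped (0.12 ± 0.10, SE, adjusted p = 0.428). The gene dyrk3.S, which in human cells encodes a kinase that dissolves condensates such as stress granules, had means of 78.5, 79.8 and 100.1 CPM in the same order. Its level was lower with the hnRNPab than the IgG label, with the adjusted p closest to the threshold in that comparison (log2 fold change -0.33 ± 0.12, SE, adjusted p = 0.0492). The call was lost on leaving out any of 10 of the 12 libraries, all but Staufen 1 and IgG 1 (adjusted p = 0.0554 to 0.142). It was kept with the replicate block (adjusted p = 2.21e-05).

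PIM kinases are constitutively active serine and threonine kinases that favour growth and survival. Both pim1 genes were higher with the hnRNPab label than with either of the others. The .S copy had 118, 93.7, 95.7 and 88.4 CPM with the Staufen label, 432, 297, 335 and 318 CPM with the hnRNPab label and 103, 79.8, 74.97 and 70.7 CPM with the IgG label. Its hnRNPab-minus-IgG log2 fold change of 2.08 ± 0.15 (SE, adjusted p = 1.15e-06) was a 4.21-fold difference, whereas the Staufen-labelled libraries overlapped the IgG-labelled ones (0.27 ± 0.15, SE, adjusted p = 0.388, and adjusted p = 1.11e-04 with the replicate number as a block). The .L copy had 146, 115, 106 and 99.6 CPM with the Staufen label, 322, 228, 254 and 263 CPM with the hnRNPab label and 158, 116, 128 and 104 CPM with the IgG label. Its hnRNPab-minus-IgG log2 fold change was 1.08, and the Staufen-minus-IgG one of -0.11 did not pass.

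The pim3 copies stood apart from each other. For pim3.S the libraries held 760.2, 593, 695 and 599 CPM with the Staufen label, 415, 284, 356 and 322 CPM with the hnRNPab label and 377, 314, 351 and 329.7 CPM with the IgG label. It was the Staufen-labelled libraries that were high, by 0.95 ± 0.13 log2 over IgG (SE, adjusted p = 7.92e-04), and hnRNPab and IgG labels overlapped (0.01 ± 0.12, SE, adjusted p = 0.982). For pim3.L they held 666, 505, 570.4 and 428 CPM with the Staufen label, 997, 672, 825 and 635 CPM with the hnRNPab label and 426, 301, 364 and 274 CPM with the IgG label. Here the order was hnRNPab, Staufen, IgG, with log2 fold changes over IgG of 1.2 ± 0.19 for the hnRNPab label (adjusted p = 3.32e-04) and 0.67 ± 0.18 for the Staufen label (adjusted p = 0.0467). The Staufen level was lower than the hnRNPab level (-0.53 ± 0.18, adjusted p = 0.0444). The Staufen-IgG call was lost without any of 9 libraries (all but IgG 1, hnRNPab 1 and Staufen 4, adjusted p = 0.0505 to 0.153). The Staufen-hnRNPab call was lost without any of 7 (hnRNPab 1 and 3, Staufen 2, 3 and 4, IgG 2 and 3, adjusted p = 0.0542 to 0.146). Both calls held with the replicate block (adjusted p = 1.65e-13 and 9.21e-12). The remaining gene of the group, rps6ka4.L, which encodes a kinase downstream of MAP kinases, was near the filter at means of 1.98, 1.52 and 2.02 CPM and passed in no comparison.

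Casein kinase 1 genes went both ways, the 2 higher ones from the Staufen table alone and the 1 lower one from the hnRNPab table alone. The mRNA of csnk1e, a kinase of the circadian clock and Wnt pathway, was higher with the hnRNPab label for both copies. The .S copy had 148, 111, 109 and 104 CPM with the Staufen label, 310.3, 188, 223 and 238 CPM with the hnRNPab label and 124, 87.4, 95.6 and 84.9 CPM with the IgG label (1.29 ± 0.18, SE, adjusted p = 1.20e-04). The .L copy had 241, 184, 198 and 170.2 CPM with the Staufen label, 405, 272, 329 and 322 CPM with the hnRNPab label and 188, 139, 155 and 133 CPM with the IgG label (1.11 ± 0.15, SE, adjusted p = 1.25e-04). In both, the Staufen-labelled libraries overlapped the IgG-labelled ones and did not pass (adjusted p = 0.504 and 0.193 for the .S and .L copies), but were higher with the replicate block (3.26e-04 and 9.52e-07). By contrast csnk1g3.S, a membrane-anchored casein kinase, had 78.1, 133, 151 and 157 CPM with the Staufen label, 35.9, 56.5, 53.7 and 54.3 CPM with the hnRNPab label and 95.1, 162, 156 and 176 CPM with the IgG label. The hnRNPab-labelled libraries were lower (-1.55 ± 0.24, SE, adjusted p = 3.65e-04). For Staufen against IgG the adjusted p was 0.853, or 0.00703 (lower) with the replicate block.

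Among cyclin-dependent kinases, cdk4.L, a partner of D-type cyclins in the entry to the cell cycle, had 195, 161, 167 and 164 CPM with the Staufen label, 278, 279, 259.7 and 269 CPM with the hnRNPab label and 146, 129, 126 and 122 CPM with the IgG label. Each group was clear of the other two. The log2 fold change over IgG was 1.05 ± 0.086 for the hnRNPab label (SE, adjusted p = 2.40e-06) and 0.39 ± 0.085 for the Staufen label (adjusted p = 0.0139, and 0.0650 without IgG 4). For cdk6.L, the other partner of D-type cyclins, the means were 30.9, 54.4 and 44.3 CPM. Neither antibody label passed against IgG without the replicate block (adjusted p = 0.515 for Staufen and 0.5704 for hnRNPab). With the block the Staufen label was lower (-0.51 log2, adjusted p = 0.00153) and the hnRNPab label higher (0.38 log2, adjusted p = 0.00772). The less studied cdk18.S had 2.74, 2.08, 1.97 and 1.88 CPM with the Staufen label, 1.62, 1.95, 1.39 and 1.96 CPM with the hnRNPab label and 5.22, 5.33, 4.25 and 4.499 CPM with the IgG label. It was lower with both antibody labels (-1.15 ± 0.20, SE, adjusted p = 0.00456 for Staufen, and -1.48 ± 0.21, SE, adjusted p = 1.53e-04 for hnRNPab). Its other copy cdk18.L had 2.38, 4.78, 2.497 and 1.82 CPM with the Staufen label, 2.72, 3.26, 2.44 and 2.39 CPM with the hnRNPab label and 3.66, 6.32, 4.08 and 3.73 CPM with the IgG label. It passed in no comparison without the replicate block (-0.72 ± 0.30, SE, adjusted p = 0.0908, and adjusted p = 1.79e-04 with it).

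The atypical protein kinase C gene prkci, whose protein acts in cell polarity, was slightly higher with the hnRNPab label in both copies. The .L copy had 139.9, 134, 135 and 135 CPM with the Staufen label, 181, 150.1, 155 and 137 CPM with the hnRNPab label and 116, 125, 120.4 and 118 CPM with the IgG label (0.38 ± 0.085, SE, adjusted p = 0.00419). The .S copy had 110.3, 102, 91.1 and 84.3 CPM with the Staufen label, 157, 151, 135 and 112 CPM with the hnRNPab label and 111, 111, 114 and 96.96 CPM with the IgG label (0.36 ± 0.12, SE, adjusted p = 0.0332). Its libraries overlapped between the 2 labels, and its call was lost on leaving out any of 6 libraries (hnRNPab 1, 2 and 3, IgG 2, 3 and 4, adjusted p = 0.0513 to 0.107). This call held with the replicate block (adjusted p = 1.18e-06).

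MAP kinase cascade genes went both ways, and all 10 passed: 4 were higher and 6 lower with the hnRNPab label. These counts restate the tables, the 4 being from the Staufen table alone and the 6 from the hnRNPab table alone. The higher ones were both copies of map3k1, map2k4.S and map4k5.S, kinases of the upper and middle tiers of which map3k1 and map2k4 lead to the JNK kinases. The gene map2k4.S had 20.5, 25.4, 27.3 and 25.6 CPM with the Staufen label, 51.6, 44.9, 54.5 and 52.03 CPM with the hnRNPab label and 22.9, 22.6, 24.7 and 22.3 CPM with the IgG label. Only the hnRNPab-labelled libraries stood apart (1.13 ± 0.11, SE, adjusted p = 6.36e-06), and the Staufen-labelled ones overlapped IgG (0.09 ± 0.10, SE, adjusted p = 0.802). The gene map4k5.S had 98.2, 82.7, 73.5 and 68.5 CPM with the Staufen label, 155, 141, 135 and 136 CPM with the hnRNPab label and 73.8, 64.8, 62.1 and 52.1 CPM with the IgG label (1.17 ± 0.13, SE, adjusted p = 2.51e-05). For map3k1.L and map3k1.S the hnRNPab-minus-IgG log2 fold changes were 1.28 and 1.33.

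The lower ones included the terminal MAP kinases mapk10.L (JNK3, -0.79 ± 0.13, SE, adjusted p = 5.40e-04) and mapk12.S (p38 gamma, -0.81 ± 0.15, SE, adjusted p = 0.00114), and upstream map3k2.L, map3k3.L, map4k3.L and map4k4-like.S. The libraries of map4k4-like.S held 205, 346, 341 and 312 CPM with the Staufen label, 65.4, 114, 97.3 and 96.04 CPM with the hnRNPab label and 202, 342, 345 and 317 CPM with the IgG label. Replicate 1 was low in each group, and Staufen and IgG labels had nearly the same values (-0.00 ± 0.22, SE, adjusted p = 0.999). The hnRNPab label differed by -1.7 ± 0.22 log2 (SE, adjusted p = 9.26e-05). The libraries of map4k3.L, whose protein takes part in amino-acid signalling in mammalian cells, held 80.6, 81.8, 91.1 and 95.4 CPM with the Staufen label, 28.98, 33.4, 28 and 30.2 CPM with the hnRNPab label and 55.5, 73.7, 60.3 and 65.02 CPM with the IgG label. All 3 groups were apart, with the Staufen label highest: 0.46 ± 0.10 log2 over IgG (SE, adjusted p = 0.0186) and 1.53 ± 0.11 over hnRNPab (adjusted p = 8.69e-07). The Staufen-IgG call missed the threshold without IgG 3, Staufen 3 or Staufen 4 (adjusted p = 0.0539 to 0.0613). It was the 1 gene of 46 from the hnRNPab table alone that was higher with the Staufen than with the IgG label (1.15% of all genes of that kind).

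The p21-activated kinases (PAK), effectors of the small GTPases Rac and Cdc42 that remodel the cytoskeleton, were lower with the hnRNPab label in all 6 genes, and all 6 came from the hnRNPab table alone. The gene pak3.L had 19.7, 15.9, 16.4 and 16.7 CPM with the Staufen label, 8.58, 6.18, 6.09 and 8.02 CPM with the hnRNPab label and 24.6, 19.3, 20.8 and 24.8 CPM with the IgG label. The gene pak3.S had 21.5, 11.7, 14.98 and 17.9 CPM with the Staufen label, 8.69, 5.95, 4.52 and 6.902 CPM with the hnRNPab label and 25.7, 19.7, 20.3 and 23.2 CPM with the IgG label. In both the hnRNPab-labelled libraries were below the other 8. The hnRNPab-minus-IgG log2 fold changes were -1.63 ± 0.15 and -1.77 ± 0.22 (SE, adjusted p = 5.54e-06 and 6.72e-05). The Staufen label did not pass against IgG (-0.38 and -0.42, though adjusted p = 1.28e-04 and 9.81e-05 with the replicate block). The gene pak5.L had 76, 85.3, 88.3 and 96.1 CPM with the Staufen label, 57.5, 69.5, 67.3 and 69.3 CPM with the hnRNPab label and 138, 179.5, 192 and 189.6 CPM with the IgG label. The Staufen label, too, was lower than IgG, at -1.01 ± 0.12 log2 (SE, adjusted p = 3.93e-04), and the hnRNPab difference was -1.41 ± 0.12 (adjusted p = 3.22e-06).

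The remaining PAK genes differed by less. The hnRNPab-minus-IgG log2 fold changes of pak2.L and pak2.S were -1.24 and -1.09, and that of pak7.L, a name that RefSeq gives as a synonym of pak4.L, was -0.64. In the RefSeq annotation 41.7% of 12 PAK genes had a match in the deposited tables. In the comparison of Staufen-labelled with hnRNPab-labelled libraries all 6 were higher, from 0.39 log2 for pak5.L to 1.34 for pak3.S. There 55.6% of all genes from the hnRNPab table alone were called higher, and 16.5% of all genes tested. The call of pak5.L was lost without hnRNPab 1 or Staufen 4 (adjusted p = 0.0594 to 0.0636).

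The 3 listed genes of calmodulin-dependent kinases, which answer to calcium, were lower with both antibody labels. In the RefSeq annotation 15.8% of 19 genes of this family had a match in the deposited tables. All 3 genes came from the hnRNPab table alone, where 82.9% of all genes were lower with the hnRNPab label and 21.1% with the Staufen label. The protein of camk2g belongs to the kinase family through which the calcium rise at fertilization ends meiotic arrest in Xenopus eggs. Its .L copy had 50.2, 55.2, 53.96 and 53.98 CPM with the Staufen label, 36.5, 37.9, 30.3 and 31.2 CPM with the hnRNPab label and 82.7, 113, 107 and 117 CPM with the IgG label. Its .S copy had 59.9, 78.5, 73.7 and 85.3 CPM with the Staufen label, 35.7, 41.02, 39.1 and 36.7 CPM with the hnRNPab label and 91.3, 128, 117 and 129.5 CPM with the IgG label. No Staufen-labelled or hnRNPab-labelled library reached the IgG-labelled ones in either copy. For the .L and the .S copy, Staufen-minus-IgG log2 fold changes were -0.97 ± 0.12 and -0.65 ± 0.13 (SE, adjusted p = 4.49e-04 and 0.00892). The hnRNPab-minus-IgG ones were -1.63 ± 0.12 and -1.61 ± 0.13 (adjusted p = 1.05e-06 and 2.62e-06). The upstream kinase camkk2.S had 10.1, 20.4, 14.1 and 12.3 CPM with the Staufen label, 8.12, 14.7, 12.5 and 12.2 CPM with the hnRNPab label and 18.6, 38.1, 24.99 and 29.7 CPM with the IgG label. It was lower with the Staufen label (-0.97 ± 0.26, SE, adjusted p = 0.0431) and with the hnRNPab label (-1.23 ± 0.26, SE, adjusted p = 0.00322). The Staufen libraries overlapped IgG, and that call was lost on leaving out any of 9 libraries (all but IgG 1, hnRNPab 1 and Staufen 2, adjusted p = 0.0524 to 0.143). It was kept with the replicate block (adjusted p = 8.24e-12).

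The genes named stk encode serine and threonine kinases of several groups. The gene stk3.S, a Hippo pathway kinase, had 105, 118, 120.4 and 115 CPM with the Staufen label, 192, 206, 243 and 207 CPM with the hnRNPab label and 88.8, 109, 119.5 and 103 CPM with the IgG label. It was the 1 of 6 that was higher with the hnRNPab label (1.01 ± 0.10, SE, adjusted p = 1.48e-05), and the 1 from the Staufen table alone, the other 5 being from the hnRNPab table alone. The gene stk26.S, of the same Ste20 group, had 215, 257, 281 and 246 CPM with the Staufen label, 117, 147, 161 and 151 CPM with the hnRNPab label and 208, 276, 311 and 285 CPM with the IgG label. It was lower (-0.91 ± 0.14, SE, adjusted p = 2.74e-04). Staufen and IgG labels overlapped in both, and stk3.S passed as higher with the Staufen label only with the replicate block (adjusted p = 0.0485, against 0.661 without it).

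The death-associated kinase gene stk17a was lower with the Staufen label in both copies. The .L copy had 265, 295, 309.9 and 276 CPM with the Staufen label, 305, 364, 378 and 338 CPM with the hnRNPab label and 342, 451, 480.4 and 405 CPM with the IgG label. The .S copy had 249, 256, 269 and 241 CPM with the Staufen label, 195, 194, 210.0 and 209.8 CPM with the hnRNPab label and 299, 334, 347 and 329.7 CPM with the IgG label. Against IgG the Staufen log2 fold changes were -0.55 ± 0.11 and -0.37 ± 0.073 (SE, adjusted p = 0.00941 and 0.00854). With the hnRNPab label the .S copy was lower (-0.69 ± 0.074, SE, adjusted p = 1.81e-05) and the .L copy did not pass without the replicate block (-0.28 ± 0.11, SE, adjusted p = 0.0763, and adjusted p = 1.50e-05 with it). The gene stk38l.L, of the NDR kinases, had 56.03, 54.3, 40.6 and 44.5 CPM with the Staufen label, 46.5, 43.2, 34.2 and 38.6 CPM with the hnRNPab label and 79.01, 92.2, 55.98 and 71.7 CPM with the IgG label. It was lower with the hnRNPab label (-0.88 ± 0.16, SE, adjusted p = 0.00112), as was stk38l.S (-0.70). The Staufen difference of stk38l.L (-0.61 ± 0.16, SE, adjusted p = 0.0374) missed the threshold without any of 8 libraries (all but hnRNPab 1 and 3, Staufen 1 and IgG 3, adjusted p = 0.0540 to 0.126). It passed with the replicate block (adjusted p = 4.11e-10).

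Single genes stood for 3 further kinase families, those of prkar2b.S, nek7.S and prkab2.S. The gene prkar2b.S encodes a regulatory subunit of the cAMP-dependent protein kinase, whose activity keeps the Xenopus oocyte in meiotic arrest. It had 47.6, 57.04, 61.3 and 60.6 CPM with the Staufen label, 39.2, 52.4, 55.4 and 50.2 CPM with the hnRNPab label and 58.5, 89.5, 94.4 and 95.3 CPM with the IgG label. It was lower with the hnRNPab label (-0.78 ± 0.16, SE, adjusted p = 0.00266). For the Staufen label it lay on the threshold (-0.58 ± 0.16, SE, adjusted p = 0.04999) and missed it on leaving out any of 10 libraries (all but IgG 1 and hnRNPab 1, adjusted p = 0.0642 to 0.138). This call held with the replicate block (adjusted p = 1.69e-09). The gene nek7.S, for a NIMA-related kinase of mitosis, had 23.4, 29.4, 33.6 and 28.3 CPM with the Staufen label, 19.2, 21.6, 23.4 and 23.6 CPM with the hnRNPab label and 30.5, 32.4, 34.8 and 36.9 CPM with the IgG label (-0.61 ± 0.12, SE, adjusted p = 0.00175).

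The microtubule-affinity kinase gene mark1, whose fly relative Par-1 acts in oocyte polarity, passed in 1 of its 2 copies. The .S copy had 135, 129.9, 137 and 127 CPM with the Staufen label, 134, 143, 129 and 109.5 CPM with the hnRNPab label and 151, 175, 167 and 151 CPM with the IgG label. The hnRNPab label was lower (-0.32 ± 0.091, SE, adjusted p = 0.0157), though not without IgG 2 (adjusted p = 0.0553). The .L copy had 97.3, 114, 122 and 97.9 CPM with the Staufen label, 103, 120.1, 113 and 106 CPM with the hnRNPab label and 105, 138, 139 and 120.4 CPM with the IgG label. It did not pass (-0.18 ± 0.11, SE, adjusted p = 0.247, and adjusted p = 0.00535 with the replicate block). The gene prkab2.S, a subunit of the AMP-activated kinase, had 3.83, 6.02, 4.27 and 4.42 CPM with the Staufen label, 2.15, 4.41, 2.09 and 2.44 CPM with the hnRNPab label and 3.06, 5.12, 2.97 and 3.65 CPM with the IgG label. It passed in no comparison without the block (-0.42 ± 0.29, SE, adjusted p = 0.312, and adjusted p = 0.0135 with it).

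**Figure D2:**
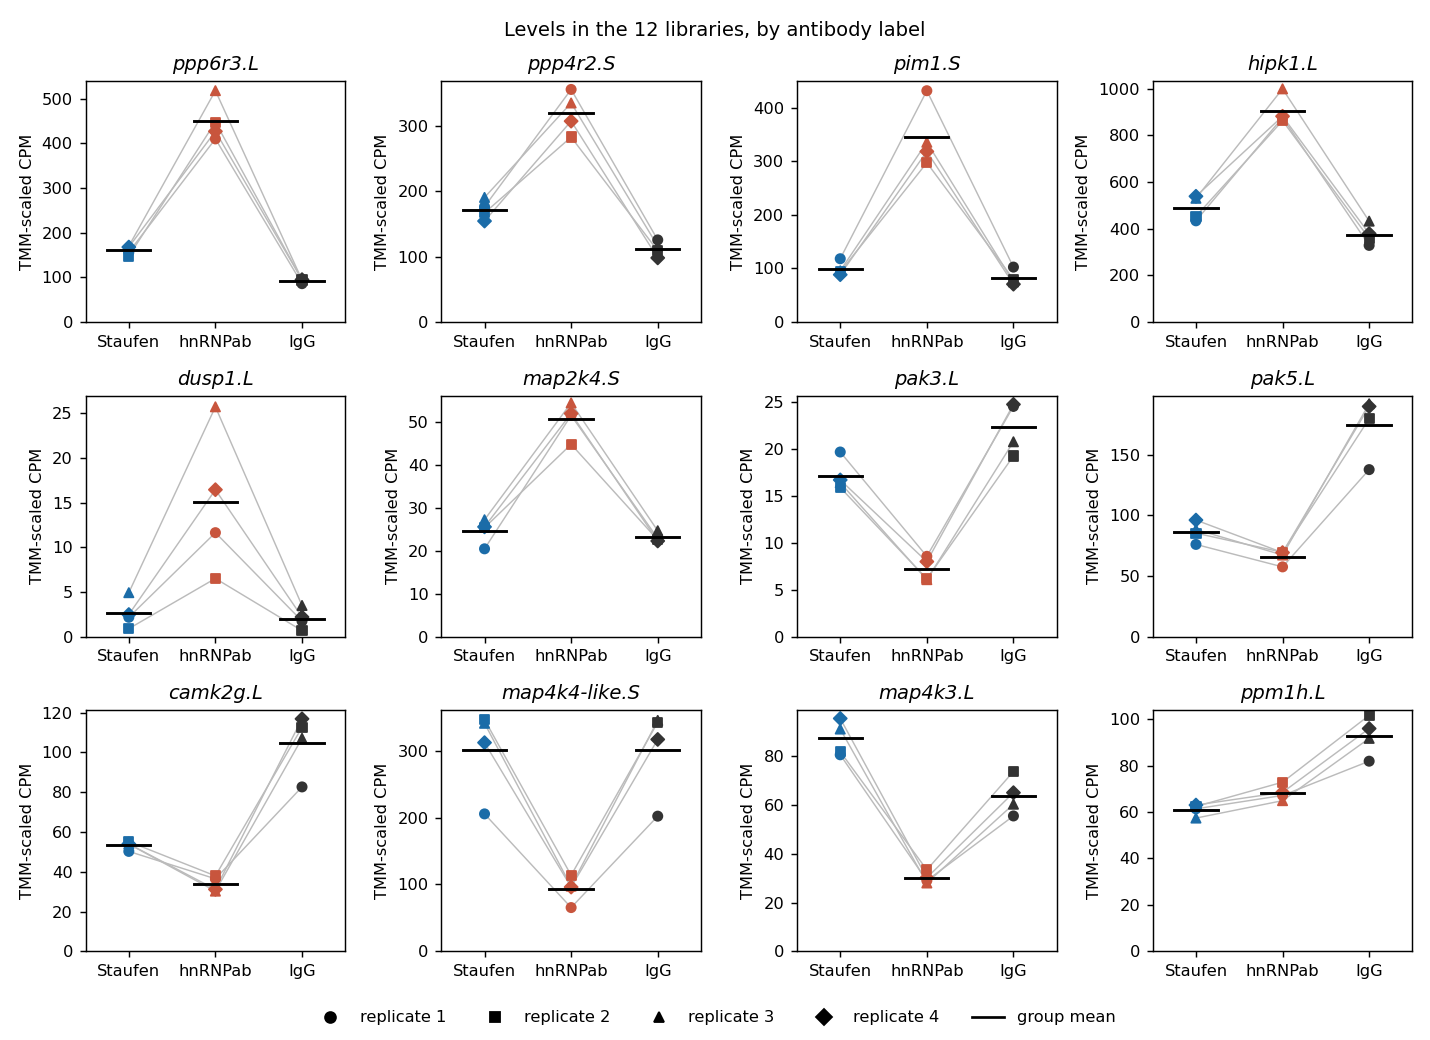
TMM-scaled CPM (vertical axes, from 0) of 12 kinase and phosphatase genes in the Staufen-labelled, hnRNPab-labelled and IgG-labelled libraries. Marker shapes and grey lines follow the replicate numbers and bars give group means. For ppp6r3.L the hnRNPab-labelled libraries sit between 409.7 and 518 CPM, above all others, whereas for map4k3.L and pak3.L they are the lowest.

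Among the phosphatases, the regulatory subunits of protein phosphatases 4 and 6 were the only family of more than 1 gene that was called higher throughout with both antibody labels than with IgG. All 3 genes came from the Staufen table alone, where 83% of all genes were higher with the hnRNPab label and 8.14% with the Staufen label. Protein phosphatase 4 acts at centrosomes and in DNA repair, and protein phosphatase 6 restrains Aurora A kinase on the mitotic spindle. The gene ppp6r3.L had 156, 148, 169.8 and 168 CPM with the Staufen label, 409.7, 447, 518 and 427 CPM with the hnRNPab label and 85.98, 94.1, 94.3 and 94.9 CPM with the IgG label. The 3 groups were clear of each other, with log2 fold changes over IgG of 0.80 ± 0.088 for the Staufen label (SE, adjusted p = 3.12e-04) and 2.29 ± 0.092 for the hnRNPab label (adjusted p = 2.13e-08). That hnRNPab value was the smallest p among the 92 genes in any of the 3 comparisons.

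The .S copy ppp6r3.S had 77.1, 97.9, 90.2 and 93.3 CPM with the Staufen label, 179.9, 220.3, 204 and 185 CPM with the hnRNPab label and 49.3, 65.4, 56.5 and 55.3 CPM with the IgG label. The gene ppp4r2.S had 176, 167, 191 and 154 CPM with the Staufen label, 356, 283, 335 and 307 CPM with the hnRNPab label and 126, 109, 116 and 98.1 CPM with the IgG label. Both kept the same order of groups with no overlap, at 0.66 and 0.62 log2 for Staufen over IgG (adjusted p = 0.00296 and 0.00336) and 1.8 and 1.51 for hnRNPab over IgG. Of the 22 RefSeq genes of protein phosphatases 4 to 6, 13.6% had a match in the deposited tables, and none of the 22 genes of protein phosphatase 2A did.

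Protein phosphatase 1 was represented by regulatory subunits, mostly lower with the hnRNPab label: 5 of 8 genes were lower and 2 higher, and ppp1r26.L did not pass (adjusted p = 0.1704, or 5.74e-06 with the replicate block). The 2 higher genes were from the Staufen table alone and the other 6 from the hnRNPab table alone. The gene ppp1r8.S, for a nuclear inhibitor of the phosphatase, had 303, 297, 345 and 322 CPM with the Staufen label, 142, 159, 172 and 157 CPM with the hnRNPab label and 359, 387, 419 and 478 CPM with the IgG label (-1.38 ± 0.10, SE, adjusted p = 1.08e-06). Its Staufen-labelled libraries were also below the IgG-labelled ones (-0.38 ± 0.10, SE, adjusted p = 0.0395), a call lost on leaving out any of 8 libraries (all but hnRNPab 1 and 3, IgG 1 and Staufen 3, adjusted p = 0.0559 to 0.103). That call was kept with the replicate block (adjusted p = 9.86e-07). The gene ppp1r26.S had 184, 281, 345 and 287 CPM with the Staufen label, 83.2, 128, 140.4 and 118 CPM with the hnRNPab label and 213, 346, 374 and 391 CPM with the IgG label (-1.5 ± 0.23, SE, adjusted p = 3.32e-04). Both copies of ppp1r12a, the subunit that directs the phosphatase to myosin, were lower at -0.99 and -0.98 log2, as was ppp1r8.L at -0.97.

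The 2 higher genes of this family were modest. The gene ppp1r37.L had 107, 96.5, 93.8 and 86 CPM with the Staufen label, 156, 150.2, 160.1 and 128 CPM with the hnRNPab label and 108, 105, 98.7 and 88.3 CPM with the IgG label (0.57 ± 0.10, SE, adjusted p = 7.27e-04). For ppp1r15b.L, whose protein sends the phosphatase to the translation factor eIF2 alpha, the means were 147, 254 and 177 CPM for the Staufen, hnRNPab and IgG labels (0.52 ± 0.099, SE, adjusted p = 0.001401 for hnRNPab over IgG). The calcineurin regulatory subunit gene ppp3r1.S had 33.99, 31.2, 35.5 and 23.7 CPM with the Staufen label, 35.7, 38.1, 39.2 and 25.8 CPM with the hnRNPab label and 28.9, 32.1, 33.7 and 23.6 CPM with the IgG label. All 3 groups overlapped (0.23 ± 0.17, SE, adjusted p = 0.345, and adjusted p = 0.00267 with the replicate block).

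The PPM1 phosphatases are metal-dependent single enzymes, and of 6 genes 3 were higher and 3 lower with the hnRNPab label. The Staufen table alone listed the 3 higher ones, the hnRNPab table alone 2 of the lower ones, and both tables ppm1h.L. The gene ppm1d.L, for a phosphatase that turns off p53 signalling, had 119.5, 122, 123 and 122 CPM with the Staufen label, 408, 384, 448 and 380.0 CPM with the hnRNPab label and 109.6, 119, 129 and 112 CPM with the IgG label. The hnRNPab-labelled libraries were 3.46-fold above IgG (1.79 ± 0.081, SE, adjusted p = 3.93e-08) and the Staufen-labelled ones overlapped IgG. A second gene, named ppm1d without a copy letter and given by RefSeq as a synonym of ppm1d.S, went the other way, with means of 230.2, 138 and 239 CPM (-0.79 ± 0.16, SE, adjusted p = 0.00211).

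The genes ppm1e and ppm1f encode phosphatases that act on PAK kinases in mammalian cells, and their mRNAs went in opposite directions. The gene ppm1e.S had 95.6, 145, 131 and 156 CPM with the Staufen label, 35.01, 55.8, 40.8 and 48.1 CPM with the hnRNPab label and 120.1, 189, 162 and 225 CPM with the IgG label. Its fall was the largest of the 92 against IgG (-1.95 ± 0.22, SE, adjusted p = 2.47e-05). The gene ppm1f.L had 21.99, 19.8, 18.3 and 18.7 CPM with the Staufen label, 54.4, 32.9, 60.2 and 45.98 CPM with the hnRNPab label and 16.2, 15, 14.9 and 14.9 CPM with the IgG label. It was higher (1.67 ± 0.16, SE, adjusted p = 8.75e-06). The gene ppm1h.L had 61.4, 62.4, 57.4 and 62.98 CPM with the Staufen label, 67.1, 72.8, 64.9 and 68.4 CPM with the hnRNPab label and 81.9, 102, 91.7 and 95.9 CPM with the IgG label. Both antibody labels were lower than IgG, at -0.60 ± 0.082 log2 for Staufen (SE, adjusted p = 9.69e-04) and -0.44 ± 0.082 for hnRNPab (adjusted p = 0.00119). It stood in both deposited tables, with positive log2 fold changes of 0.88 and 1.31 in the authors' deposited tables for Staufen and hnRNPab.

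Dual-specificity phosphatases remove phosphate from MAP kinases, and 5 of 9 genes were higher with the hnRNPab label, 2 were lower and the 2 dusp4.L genes did not pass. These counts restate the tables: the 5 were from the Staufen table alone, the 2 lower ones from the hnRNPab table alone and the dusp4.L genes from both. The immediate-early dusp1.L had 2.17, 0.9, 4.93 and 2.48 CPM with the Staufen label, 11.7, 6.52, 25.7 and 16.5 CPM with the hnRNPab label and 1.76, 0.679, 3.495 and 2.21 CPM with the IgG label. It had the highest hnRNPab-minus-IgG log2 fold change of the 92 (2.89 ± 0.58, SE, adjusted p = 0.00207), at low levels and with replicate 3 highest and replicate 2 lowest under every label. The .S copy dusp1.S had 13.4, 11.8, 11.8 and 9.22 CPM with the Staufen label, 29.3, 25.1, 28.5 and 24.6 CPM with the hnRNPab label and 10.5, 9.56, 9.03 and 6.43 CPM with the IgG label (1.6 ± 0.16, SE, adjusted p = 1.38e-05). The ERK phosphatase gene dusp6.S had 13.8, 14.8, 10.8 and 10.4 CPM with the Staufen label, 29.7, 29.6, 24.4 and 26.9 CPM with the hnRNPab label and 10.99, 11.5, 6.99 and 9.45 CPM with the IgG label (1.5 ± 0.17, SE, adjusted p = 3.25e-05), and dusp6.L was higher by 0.95 log2.

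Its close relative dusp7.L was lower. It had 38.1, 42.2, 28.5 and 44.1 CPM with the Staufen label, 22.4, 25.6, 18.5 and 27.5 CPM with the hnRNPab label and 55.8, 68.7, 45.2 and 72.4 CPM with the IgG label (-1.36 ± 0.19, SE, adjusted p = 1.21e-04 for hnRNPab against IgG). The Staufen label was also lower (-0.66 ± 0.18, SE, adjusted p = 0.0457), a call lost on leaving out any of 10 libraries (all but IgG 3 and hnRNPab 3, adjusted p = 0.0531 to 0.137). The dusp4.L genes had means of 87.4, 106 and 109 CPM for gene3274 and 42.2, 54.6 and 48.1 CPM for gene8830 with the Staufen, hnRNPab and IgG labels. With the replicate block gene8830 was higher with the hnRNPab label (adjusted p = 0.00761) and gene3274 still did not pass.

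The copies of dusp16, a phosphatase of JNK and p38, were in opposite tables. The .L copy, from the Staufen table alone, had 41.8, 38.3, 37.1 and 39.3 CPM with the Staufen label, 67.9, 59.6, 58.3 and 58.3 CPM with the hnRNPab label and 32.7, 33.5, 30.8 and 33.2 CPM with the IgG label. The .S copy, from the hnRNPab table alone, had 102, 85.9, 92.6 and 86.6 CPM with the Staufen label, 89.3, 67.3, 67.2 and 61.1 CPM with the hnRNPab label and 107, 99.6, 113 and 99.2 CPM with the IgG label. With the hnRNPab label the .L copy was higher than with IgG (0.91 ± 0.082, SE, adjusted p = 5.21e-06) and the .S copy lower (-0.56 ± 0.12, SE, adjusted p = 0.00264), with no overlap in either.

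The listed tyrosine phosphatase genes were mostly lower with the hnRNPab label, with 7 of 11 genes lower, 3 higher and ptpn21.L not passing. In the RefSeq annotation 14.8% of 54 genes of this family had a match in the deposited tables. These counts restate the tables: the 7 were from the hnRNPab table alone, the 3 from the Staufen table alone and ptpn21.L from both. The genes ptp4a1 and ptp4a2 encode small membrane-bound phosphatases also called PRL. The gene ptp4a1.L had 107, 113, 129.7 and 113 CPM with the Staufen label, 55.9, 57.04, 56.6 and 61.2 CPM with the hnRNPab label and 119, 141, 149 and 147 CPM with the IgG label. The gene ptp4a1.S had 72.9, 92.1, 87.1 and 79.8 CPM with the Staufen label, 45.1, 56.6, 50.96 and 45.8 CPM with the hnRNPab label and 96.2, 136, 124 and 120.0 CPM with the IgG label. The gene ptp4a2.L had 129.7, 148, 149 and 148 CPM with the Staufen label, 64.98, 77.6, 79.6 and 57.3 CPM with the hnRNPab label and 118, 144, 147 and 152 CPM with the IgG label. In all 3 the hnRNPab-labelled libraries were the lowest, at hnRNPab-minus-IgG log2 fold changes of -1.26 ± 0.093, -1.26 ± 0.12 and -1.01 ± 0.12 (SE, adjusted p = 1.08e-06, 9.19e-06 and 4.40e-05). With the Staufen label ptp4a1.S was lower than IgG (-0.52 ± 0.12, SE, adjusted p = 0.02), though omitting Staufen 4, IgG 2 or IgG 3 ended the call (adjusted p = 0.0545 to 0.0700), and the other 2 did not pass (adjusted p = 0.117 for ptp4a1.L, or 2.66e-04 with the replicate block, and 0.971 for ptp4a2.L).

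The gene ptpn3.S, for a phosphatase of the cell cortex, had 70.1, 129, 148 and 155 CPM with the Staufen label, 30.5, 53.3, 60 and 64.98 CPM with the hnRNPab label and 94.3, 188, 193 and 264 CPM with the IgG label. Replicate 1 was lowest under each label, and the hnRNPab-labelled libraries lay below all others (-1.82 ± 0.34, SE, adjusted p = 0.00113). The receptor-type ptpra.S had 65.1, 52.6, 46.1 and 47.1 CPM with the Staufen label, 191, 132, 123 and 153 CPM with the hnRNPab label and 68.1, 56.6, 49.9 and 50.1 CPM with the IgG label. It was higher (1.42 ± 0.16, SE, adjusted p = 3.60e-05), as were its relative ptpre.S (0.78) and ptpn21.S (0.53). The remaining genes were lower: ptpn11.L, which encodes the growth-factor signalling phosphatase SHP2, at -1.38, ptpn9.S at -0.61 and ptpn2.L at -0.53 log2.

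The comparison of the Staufen label with the IgG label gave fewer calls. Of the 92 genes, 13 were higher with the Staufen label, 14 lower and 65 did not pass in edgeR's test without the replicate block. Over all genes tested, 4.45% were called higher and 3.33% lower. Groups did not overlap for 16 higher and 13 lower genes (6.67% and 5.67% of all genes tested). The median log2 fold change of the 92 was -0.11, against -0.01 over all genes. It was 0.27 for the 37 genes of the Staufen table alone and -0.39 for the 46 of the hnRNPab table alone.

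Same-numbered libraries of the 3 labels deviated together, and with the replicate number as a block the counts became 28 higher, 44 lower and 20 not passed (19% and 20.5% of all genes). From the hnRNPab table alone 13 of 46 genes were lower (21.1% of all genes of that kind), or 36 with the block (69.2%). From the Staufen table alone 10 of 37 were higher (8.14% of all of that kind), or 24 with the block (31.2%). The 15 genes called higher only with the block were dyrk1a.S, hipk1.S, hipk3.S, both copies of map3k1, map4k5.S, pim1.S, both copies of csnk1e, prkci.L, stk3.S, ppm1f.L, dusp1.S, dusp6.S and dusp16.L (adjusted p = 9.52e-07 to 0.0485 in that fit). The kinase genes among the 30 called lower only with the block were dyrk3.S, map3k2.L, map3k3.L, both copies of mark1, pak2 and pak3, nek7.S, csnk1g3.S, cdk6.L, cdk18.L, prkci.S and stk38l.S. The phosphatase genes among them were ppm1e.S, both dusp4.L genes, dusp16.S, both copies of ppp1r12a and ppp1r26, ppp1r8.L, ppp1r15b.L, ptp4a1.L, ptpn3.S, ptpn9.S, ptpn11.L and ptpn21.L. Adjusted p-values of the 30 in that fit ran from 6.75e-11 to 0.0282.

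Besides the genes described above, ppm1b.L was higher (0.37 ± 0.083, SE, adjusted p = 0.0158, though 0.0541 to 0.0580 without IgG 2, Staufen 3 or IgG 4) and ptpn2.L lower (-0.50 ± 0.078, SE, adjusted p = 0.00209). The call of hipk1.L (0.38 ± 0.11, SE, adjusted p = 0.0456) was lost on leaving out any of 9 libraries (all but Staufen 1, hnRNPab 1 and IgG 3, adjusted p = 0.0532 to 0.129). It was kept with the replicate block (adjusted p = 1.73e-07).

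Between the Staufen and the hnRNPab label, 30 genes were higher and 34 lower in the Staufen-labelled libraries and 28 did not pass, where 16.5% of all genes tested were called higher and 16.3% lower. With the replicate block they were 39, 44 and 9 (33.1% and 31.5% of all genes called), and groups did not overlap for 28 and 34 genes (15.5% of all genes each way). Of the higher genes 29 came from the hnRNPab table alone, where 55.6% of all genes were higher, and the other was pim3.S. Of the lower genes 30 came from the Staufen table alone, where 80.1% of all genes were lower, and 4 from both tables. The 9 genes higher only with the block were prkab2.S, map3k3.L, prkar2b.S, camkk2.S, both copies of stk38l and ppp1r12a, and ppp1r8.L (adjusted p = 2.92e-08 to 0.0461 in that fit). The 10 genes lower only with the block were dyrk1a.2.L (gene17110 and gene50575), cdk6.L, prkci.L, stk17a.L, ppm1h.L, ppp3r1.S, both dusp4.L genes and ppp1r26.L (adjusted p = 2.32e-07 to 0.0391). The largest rises were those of map4k4-like.S (1.69 ± 0.22), ppm1e.S (1.55 ± 0.21), map4k3.L (1.53 ± 0.11) and csnk1g3.S (1.37 ± 0.24). The largest falls were those of dusp1.L (-2.52 ± 0.57), pim1.S (-1.8 ± 0.15), ppm1d.L (-1.73 ± 0.081) and ptpra.S (-1.5 ± 0.16), each as a log2 fold change with SE.

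The Staufen-labelled mean lay between the other 2 in 72 of the 92 genes (78.3%), against 43.7% of all genes tested. It was the highest of the 3 in 5 genes and the lowest in 15, against 5835 and 5871 of all 20803 genes tested. By table it lay between in 83.8% of the 37 members from the Staufen table alone, 84.8% of the 46 from the hnRNPab table alone and 22.2% of the 9 in both. The tables fixed most hnRNPab-IgG directions of the members, so that these shares describe a selected set. The hnRNPab-labelled mean was the highest in 41 of the 92 genes and the lowest in 43, against 8424 and 9050 of all 20803 genes tested.

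The .L and .S copies were both among the members for 24 symbols. In 20 pairs both copies stood in the same table, in 3 pairs one copy was in both tables, and dusp16 was split between them. The hnRNPab-minus-IgG difference had the same sign in both copies for 22 of 24. The tables fixed most of these directions, so that this count was largely set by how members were chosen. The share over all pairs was not counted. One of the 22 was pim3, whose .S copy differed by only 0.005 log2, or -0.0046 with the replicate block. To compare copies within a library, the log2 ratio of the .L to the .S copy was taken on CPM + 0.5. Its level depends on transcript length and on how reads of near-identical copies were assigned, so that only its differences between labels are given, and those are uncertain where reads could be swapped.

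By a two-sided exact permutation test of 4 against 4 libraries no pair passed after adjustment over 491 pairs in 3 comparisons, where the smallest possible p of 0.0286 became an adjusted p of 0.0724. Because the adjustment depends on how many tests reach that p, and too few did, no single pair could pass whatever its difference. The permutation also swapped libraries across replicate numbers. That smallest p was reached, unadjusted, by 6 of the 24 pairs for Staufen against IgG, by 11 for hnRNPab against IgG and by 11 for Staufen against hnRNPab, and by 101, 255 and 225 of all 491 pairs in the same order. The test of limma across the 491 pairs called 6, 12 and 12 of the 24 (25%, 50% and 50%), where 25.3%, 57.4% and 50.7% of all 491 pairs were called. With the replicate number as a block it called 13, 16 and 15 of them (54.2%, 66.7% and 62.5%), where 53.4%, 78.4% and 75.4% of all 491 pairs were called.

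Between the hnRNPab and IgG labels the ratio of the dusp16 copies differed most among the 24 pairs. Their log2 ratios were -1.28, -1.16, -1.31 and -1.13 with the Staufen label, -0.39, -0.17, -0.20 and -0.07 with the hnRNPab label and -1.7, -1.56, -1.86 and -1.56 with the IgG label. The hnRNPab-minus-IgG difference in ratio was 1.46 ± 0.062 (SE, limma with the block, adjusted p = 8.56e-09), and no library of one group reached the other. The pim3 ratios were -0.19, -0.23, -0.28 and -0.48 with the Staufen label, 1.26, 1.24, 1.21 and 0.98 with the hnRNPab label and 0.18, -0.06, 0.05 and -0.27 with the IgG label. Their Staufen-minus-hnRNPab difference, the largest of the 24 in that comparison, was -1.47 ± 0.055 (SE, limma with the block, adjusted p = 4.37e-09).

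The next largest differences between the hnRNPab and IgG labels were -1.27 for dyrk1a, where the .S copy carried the rise, 1.2 for pim3, 1.17 for ppp1r26, where the .S copy carried the fall, 1.03 for dusp1, -0.99 for pim1 and 0.84 for hipk1. The dusp1 ratios overlapped between these labels (unadjusted exact p = 0.143, limma adjusted p = 0.124, or 4.27e-07 with the block). At its low levels the dusp1 difference was 1.255 with 0.1 CPM added in place of 0.5. At the other end, the ratio differences of ptp4a1, camk2g, ppp1r12a and prkci were -0.0027, -0.02, -0.02 and 0.02, with SE of 0.060, 0.078, 0.055 and 0.068 in limma with the block. Copies of dusp16 were called in opposite directions in the hnRNPab-IgG and Staufen-hnRNPab comparisons, and copies of pim3 in the Staufen-hnRNPab comparison. In that last comparison the .S copy of dusp16 lost its call without Staufen 1 or 3 or hnRNPab 2, 3 or 4 (adjusted p = 0.0726 to 0.0893). With the replicate block copies were also called in opposite directions for dusp16 and prkci in Staufen against IgG, .L higher and .S lower, and for stk17a and ppp1r26 in Staufen against hnRNPab, .L lower and .S higher.

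**Figure D3:**
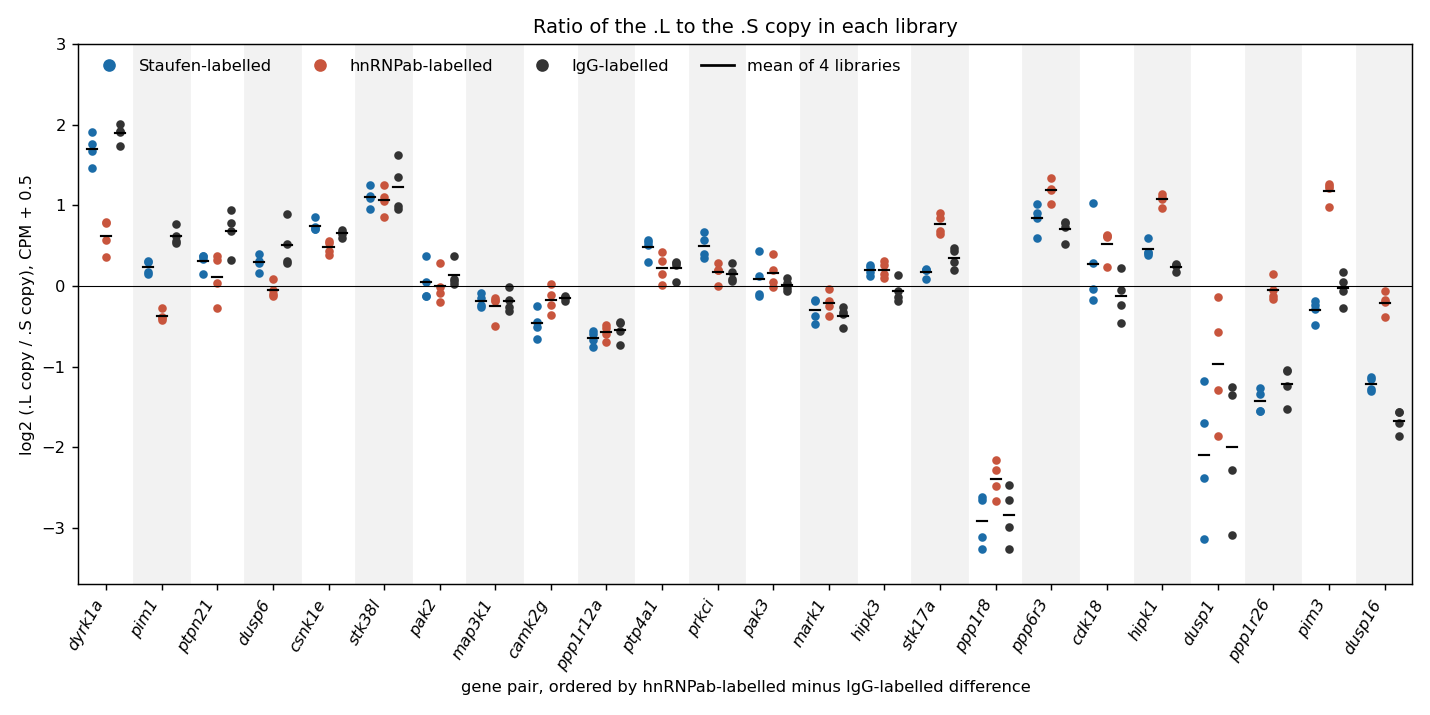
Log2 ratio of the .L to the .S copy (vertical axis, CPM + 0.5) in each library for the 24 pairs with both copies among the members, ordered along the horizontal axis by the hnRNPab-labelled minus IgG-labelled difference. Points are libraries and bars are means of 4. At the left end dyrk1a and pim1 and at the right end dusp16 and pim3 show hnRNPab-labelled libraries apart from the others.

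Replicate number carried part of the spread, which bears on how the blocked and unblocked fits differ. Averaged over labels, the range between replicate-number means had a median of 0.39 log2 over the 92 genes, and the range between the 3 antibody-label means a median of 0.99. The members were listed from antibody comparisons, so that a wide range between labels was partly set by how they were chosen. The replicate range was the larger of the 2 in 11 of the 92 genes (12%), against 55.6% of all genes tested, which were not chosen in this way. It was widest for dusp1.L at 1.87 log2, ptpn3.S at 1.23 and cdk6.L at 1.04. In cdk6.L replicate 3 averaged 27.8 CPM over the 3 labels, against 44.5, 50.7 and 49.8 CPM in replicates 1, 2 and 4.

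**Figure D4:**
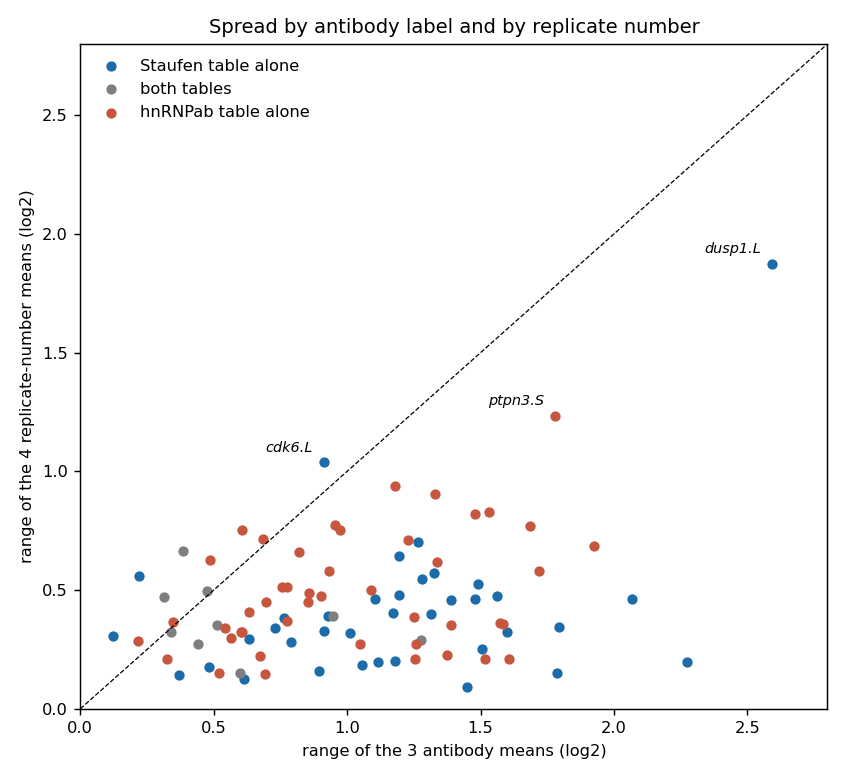
Range of the 4 replicate-number means (vertical axis) against the range of the 3 antibody-label means (horizontal axis), both on the log2 scale of CPM + 0.5, for the 92 genes coloured by deposited table. Genes above the dashed line of equality, 11 in all, varied more with replicate number than with label, and the 3 named genes had the widest replicate ranges.

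Other kinases, phosphatases and their partners among the named genes were read from 3 lists. Of 37 genes of other protein kinases, 24 were higher and 9 lower with the hnRNPab label than with IgG (median log2 fold change 0.74). The smallest p-values were those of mapkapk2.L, a kinase activated by p38 (2.57 ± 0.13, SE, adjusted p = 6.24e-08), the focal adhesion kinase gene ptk2.L (1.85 ± 0.10) and eif2ak3.S, the kinase PERK of the endoplasmic reticulum stress response (1.51 ± 0.085). By table, all 24 higher genes were among the 25 of the Staufen table alone, and all 9 lower ones among the 10 of the hnRNPab table alone, so that the counts restate the tables, in which 83% and 82.9% of all genes went these ways (over all genes tested, 16.3% were higher and 17.4% lower). Of 14 genes of other protein phosphatases, 7 were higher and 4 lower (median 0.58), all of them from the Staufen and the hnRNPab table alone in that order. The smallest p was that of cdc14b.S (2.06 ± 0.11, SE, adjusted p = 9.08e-08), an antagonist of cyclin-dependent kinases.

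The third list held activators, scaffolds and inhibitors, of which 20 were higher and 11 lower among 37 genes (median 0.80). Of these, 19 of the higher ones came from the Staufen table alone and all 11 lower ones from the hnRNPab table alone. Cyclin A2, ccna2.S, was higher (2.22 ± 0.16, SE, adjusted p = 7.45e-07). Of the inhibitors of growth-factor signalling, spry1.L was higher (2.09 ± 0.13, adjusted p = 3.72e-07) and spred2.L lower (-1.12 ± 0.076, adjusted p = 6.17e-07). For the Staufen label against IgG the 3 lists gave 2 higher and 3 lower, 0 and 0, and 3 and 3 genes in edgeR's test, and 11 and 9, 1 and 8, and 16 and 9 with the replicate block, where 4.45% and 3.33% of all genes were called without the block and 19% and 20.5% with it. The 0 and 0 of the phosphatase list were 1 and 2 genes at an unadjusted p below 0.05, and 0 and 1 with DESeq2. Those higher or lower in that comparison included mapkapk2.S (0.82 ± 0.13, SE, adjusted p = 0.00299), the cyclin gene ccnk.S (0.93 ± 0.12, adjusted p = 0.000677) and ick.L (-0.88 ± 0.090, adjusted p = 0.000173). The lists hold only genes that the authors had listed, so that these counts, too, describe a selected set.

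In the authors' deposited tables, the log2 fold changes of the members in the Staufen table ran from 0.88 for ppm1h.L to 2.22 for ppm1d.L. Their median was 1.40 over 46 genes, against 1.24 over all genes of that table. In the hnRNPab table they ran from 0.86 for prkar2b.S to 2.07 for pak3.L. Their median was 1.12 over 55 genes, against 1.18 over all. The lowest value in either table was 0.85.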

How the data were processed

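RNA immunoprecipitated from oocyte L-body fractions was measured in 12 libraries, 4 per label. The authors deposited whole-number counts per gene, made with STAR 2.6.1b and HTSeq 0.9.1 per the submitters' processing notes, which also name edgeR. The sources used here do not give the genome build, the annotation or the strand setting. The authors' deposited tables hold a log2 fold change, an F score, p-values and adjusted p-values per gene, per the file headers, and pair identifiers with names. Of the members' names 82 (89.1%) matched RefSeq symbols of Xenopus_laevis_v10.1, used for names only. Reads outside exons and those shared between genes (0.521% to 0.791%) stayed out of library sizes. Outside exons lay 16.9% to 19.6% with the IgG label, 13.4% to 14.8% with Staufen and 11.0% to 12.9% with hnRNPab. These ranges did not overlap, and any part of this in the differences between labels was not tested.

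Counts were fitted with edgeR 4.0.16 in R 4.3.3 (TMM, filterByExpr, quasi-likelihood F test over 12 libraries with the label as the only term, Benjamini-Hochberg over 20803 genes, threshold 0.05), and SE were taken from the fold change and F. The code was tested on simulated data. Replicate numbers come from the sample titles. Same-numbered libraries deviated together (r = 0.774 to 0.861 in 12 pairs, -0.502 to -0.040 in others), so that the numbers pair the samples, and members whose call changed in a fit with the replicate number as a block are named. Ratios of copies were compared by exact permutation and limma 3.58.1. Alternatives were DESeq2 1.42.0, RLE size factors, no filter, 2 groups alone and leaving out each library.

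Values in every library are given for the 10 largest rises and 10 largest falls of members per comparison (mean of at least 5 CPM), the 3 smallest p per family and pairs of copies called in opposite directions. Members, lists and this rule were chosen with earlier results of these data known. No sequence of these genes was used here.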

Additional observations from a re-analysis of the deposited data

Results flagged for a closer look

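A single library lay far from the other 3 of its label for 10 of the 180 combinations of named gene and label examined, by Dixon's test at the 95% level, which chance alone gives in about 5% of groups. The level of csnk1g3.S was 35.9 CPM in hnRNPab 1, against 53.7 to 56.5 CPM in the others of that label. That of prkar2b.S was 58.5 CPM in IgG 1, against 89.5 to 95.3 CPM. For ptp4a2.L it was 130 CPM in Staufen 1, against 148 to 149 CPM. For csnk1e.S it was 148 CPM in Staufen 1, against 104 to 111 CPM. For ppp6r3.L it was 86 CPM in IgG 1, against 94.1 to 94.9 CPM. For dusp16.L it was 67.9 CPM in hnRNPab 1, against 58.3 to 59.6 CPM. For ppm1f.L it was 16.2 CPM in IgG 1, against 14.9 to 15.0 CPM. The others were hipk1.L with 999 CPM in hnRNPab 3, against 863 to 882 CPM, cdk18.L with 6.32 CPM in IgG 2, against 3.66 to 4.08 CPM, and prkab2.S with 4.41 CPM in hnRNPab 2, against 2.09 to 2.44 CPM.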

How the results depend on the processing

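The replicate numbers mattered most in Staufen against IgG, where the replicate block gave 28 genes higher and 44 lower, against 13 and 14 without it. Genes called lower numbered 9 with no filter on low counts, 9 with the 2 groups alone and 22 with DESeq2. Leaving out each library in turn gave 9 to 13 higher and 8 to 18 lower. For hnRNPab against IgG it gave 36 to 37 higher and 40 to 44 lower, and for Staufen against hnRNPab 27 to 31 and 31 to 35. Of the calls, 8 of 13 higher and 8 of 14 lower for Staufen against IgG held without any 1 library, as did 36 of 37 and 40 of 42 for hnRNPab against IgG and 26 of 30 and 31 of 34 for Staufen against hnRNPab. Fits without a library had no replicate block, and every call, also those lost in them, was kept with the block on all libraries. With no filter or with the 2 groups alone, Staufen-IgG calls of hipk1.L, pim3.L, prkar2b.S, camkk2.S, stk38l.L, dusp7.L and ppp1r8.S were lost (adjusted p up to 0.108), as were those of map4k3.L and cdk4.L with the 2 groups alone. The hnRNPab-IgG calls of dyrk3.S and mark1.S were lost in the same way (adjusted p up to 0.135), and that of dyrk3.S also with RLE size factors. With no filter the Staufen-hnRNPab calls of hipk1.S, nek7.S, pak5.L, pim3.L, dusp16.S and ptpn21.L were lost (adjusted p up to 0.0840), as were those of pim3.L and dusp16.S with the 2 groups alone. No call changed direction under any setting run. For pairs of copies, 0 passed by the exact test with either pseudocount (0.5 or 0.1 CPM), where even the smallest possible p could not pass after adjustment. The limma fit, added after seeing the data, called 6, 12 and 12 of 24 pairs for Staufen against IgG, hnRNPab against IgG and Staufen against hnRNPab, and 13, 16 and 15 with the replicate block. The cause of these differences was not tested. The median of all genes stayed between -0.032 and 0.020 log2 under every setting. Gene counts limit rps6ka4.L, cdk18, prkab2.S and dusp1.L most.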
